A study of Sus scrofa with 23 samples.

Results

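The tight junction genes described here are 10 members, 8 claudins (CLDN1, CLDN2, CLDN3, CLDN4, CLDN5, CLDN7, CLDN8 and CLDN12) together with occludin (OCLN) and zonula occludens 1 (TJP1). They were taken by symbol from 26687 gene symbols, in a list drawn up with earlier results of these data known. RNA was sequenced from the kidney cortex of 23 newborn pigs, 1 library a pig. Of these, 11 libraries were labelled CFTR-/- (CF), 6 were labelled CFTR+/- (HET) and 6 were labelled wild-type (WT), and the HET and WT libraries together made 12 non-CF libraries. CFTR is the chloride and bicarbonate channel that is mutated in cystic fibrosis, and the pigs were sampled within hours of birth. The labels name neither sex nor litter.

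Tight junctions seal the space between epithelial cells and decide which ions and how much water pass there. Claudins span the membrane and form the seal itself, some of them as barriers and some as pores with a charge preference, so a nephron segment is known by the claudins it uses. Occludin is another membrane protein of the strand, and TJP1 is the cytoplasmic scaffold that ties the strand to actin. In the kidney, CLDN2 is the cation and water pore of the leaky proximal tubule, while CLDN3, CLDN4, CLDN7 and CLDN8 belong mainly to the tighter distal nephron and collecting duct. CLDN1 lines the parietal layer of Bowman's capsule, and CLDN5 marks endothelium. In RNA from whole tissue, fewer cells of a type and less RNA per cell cannot be told apart.

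Several facts about the libraries bear on what follows. Total estimated counts ran from 32901281 to 52952273 a library. The most abundant transcript symbol took 42.1% to 53.2% of the summed TPM, the transcript level corrected for length and library total, so comparisons between labels used CPM, the count scaled to the library total, after trimmed mean of M-values (TMM) normalization, and TPM served for levels between genes, for shares of transcripts within a gene and as an alternative scale. Pigs numbered 1 to 6 and 12 to 18 (the earlier set, with 6 CF, 3 HET and 4 WT libraries) lay apart from the other pigs (the later set, with 5 CF, 3 HET and 2 WT) on the second axis of a multidimensional scaling plot, for 23 of 23 libraries. The split was taken from earlier results of these same libraries, so their separation is a description and not a test. The names earlier and later follow the numbers within CF and within non-CF. The labels do not say what the numbers stand for. CFTR itself went against the direction of its label. Its level was 2.26 ± 0.794 CPM (SD, n = 6) in WT, 12.6 ± 2.76 (n = 6) in HET and 19.9 ± 3.21 (n = 11) in CF, with no overlap of WT with either of the others. Of all genes tested, 0.229% had no overlap between CF and WT and 0.703% between HET and WT. The CFTR values are counts over whole transcripts and do not show whether the disrupted part of the gene was read, so the groups are named below as the libraries' labels. Y-linked EIF1AY was at 15.1 CPM or more in 13 libraries, 6 of 11 CF, 5 of 6 HET and 2 of 6 WT, and at 0.0961 CPM or less in the other libraries.

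Upstream sequence is shown for the gene that differed between labels (CLDN2) and for the 3 claudins that varied together across libraries (CLDN3, CLDN4 and CLDN7). Each run is the 250 bases before the annotated start of the gene's most abundant transcript, read from Sscrofa11.1 with the RefSeq annotation, 5′ to 3′ on the gene's strand. Capitals mark the GC box GGGCGG and the E-box CACCTG, the letters bound by the SNAI and ZEB repressors of epithelial genes, on either strand.
CLDN2 (chrX:87352445-87352694, plus strand): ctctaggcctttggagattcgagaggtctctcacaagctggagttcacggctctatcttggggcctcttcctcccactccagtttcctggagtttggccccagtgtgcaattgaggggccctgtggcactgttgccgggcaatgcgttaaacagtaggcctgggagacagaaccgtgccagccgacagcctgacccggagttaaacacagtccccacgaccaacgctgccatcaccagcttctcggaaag
CLDN3 (chr3:11020103-11020352, minus strand): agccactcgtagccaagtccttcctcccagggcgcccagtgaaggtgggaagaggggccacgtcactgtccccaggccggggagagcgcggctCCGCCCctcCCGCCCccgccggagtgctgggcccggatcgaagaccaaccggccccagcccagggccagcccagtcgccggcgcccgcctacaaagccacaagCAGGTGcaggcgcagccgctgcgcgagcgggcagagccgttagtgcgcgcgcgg
CLDN4 (chr3:11039461-11039710, plus strand): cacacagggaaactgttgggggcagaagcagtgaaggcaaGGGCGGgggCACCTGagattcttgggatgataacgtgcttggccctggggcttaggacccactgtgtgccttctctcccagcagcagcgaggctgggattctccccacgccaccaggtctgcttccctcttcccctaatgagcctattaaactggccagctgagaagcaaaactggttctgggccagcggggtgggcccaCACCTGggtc
CLDN7 (chr12:52614590-52614839, minus strand): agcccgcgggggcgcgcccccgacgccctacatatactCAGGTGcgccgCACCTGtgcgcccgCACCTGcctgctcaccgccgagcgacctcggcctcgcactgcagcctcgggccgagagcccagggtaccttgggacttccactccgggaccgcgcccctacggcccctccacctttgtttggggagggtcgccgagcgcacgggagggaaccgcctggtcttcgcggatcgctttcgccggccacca

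The E-box stood in the windows of CLDN3, CLDN4, CLDN7 and OCLN, and in 20.3% of 26670 windows of the same length over all annotated genes. CLDN7 held it at 3 places, CLDN4 at 2 and CLDN3 at 1. The GC box stood in the windows of CLDN1, CLDN3, CLDN4, CLDN5, OCLN and TJP1, against 40.6% of all windows. None of the 10 windows held TATAAA (10.6% of all windows) or AACCGGTT (a GRHL site, 0.09%). CG pairs numbered 10 in the CLDN2 window, equal to the median over all windows, 27 in that of CLDN3, 31 in that of CLDN7 and 5 in that of CLDN4. Such matches describe the letters in these windows and not binding, and the windows of CLDN12, OCLN and TJP1 overlap exons of other transcripts of the same gene. The windows over all genes stood before each gene's first listed transcript, expressed or not. They were thus chosen by another rule than those of the members. CLDN3 and CLDN4 are neighbours on chromosome 3, with 19608 bases between them, and CLDN2 lies on the X chromosome.

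Reads were assigned to transcripts by short matches, so the share of each member's 31-base words that other genes also hold was counted on transcripts rebuilt from the genome. CLDN2, CLDN7, CLDN8, CLDN12 and TJP1 shared none. CLDN4 shared 3.7% of its words and CLDN3 7.89%, mostly with each other, and the part of these shared words in the likeness of the 2 genes was not tested. CLDN1 shared 17.1% of its words, the largest share of the members, with LOC396566, a gene on chromosome 8 that had at most 0.0577 CPM in any library. The effect of shared words on the counts was not tested. All 10 members passed the filter on low counts, with mean estimated counts from 547 (CLDN3) to 12457 (CLDN2) a library.

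Per length, CLDN2 had the highest mean over all libraries, at 105 ± 25.5 TPM (SD, n = 23). CLDN8 followed at 82.7 ± 8.86 TPM, then CLDN7 at 60.6 ± 7.43, CLDN4 at 48.6 ± 6.35 and TJP1 at 38.6 ± 4.8. The first 5 places were held by these 5 genes in every library. The order was clear for CLDN8 against CLDN7 and for TJP1 against CLDN1, the next gene after these 5, in 23 of 23 libraries each. CLDN7 exceeded CLDN4 in 22 of 23 and CLDN4 exceeded TJP1 in 20 of 23, while CLDN2 exceeded CLDN8 in 17 of 23. The order of CLDN2 and CLDN8 was not the same in every label, and this was not tested. CLDN2 was above CLDN8 in 11 of 11 CF libraries (means of 119.6 and 79.1 TPM), in 4 of 6 HET libraries (99.96 and 83.8 TPM) and in 2 of 6 WT libraries, where the mean of CLDN8 (88.1 TPM) was above that of CLDN2 (82.9 TPM).
CLDN1 (23 ± 3.45 TPM), OCLN (20.8 ± 2.13), CLDN3 (19.9 ± 4.97) and CLDN5 (18 ± 2.68) could not be put in order beyond their spread. OCLN exceeded CLDN3 in 12 of 23 libraries, and CLDN3 exceeded CLDN5 in 14 of 23. CLDN12, a widely expressed claudin without the usual scaffold-binding tail, was lowest on average at 13.8 ± 1.9 TPM. CPM per kilobase of effective length gave the same order for all 10 members. Within a library that measure is TPM times a constant, so it is not a separate check of the order.

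**Figure D1:**
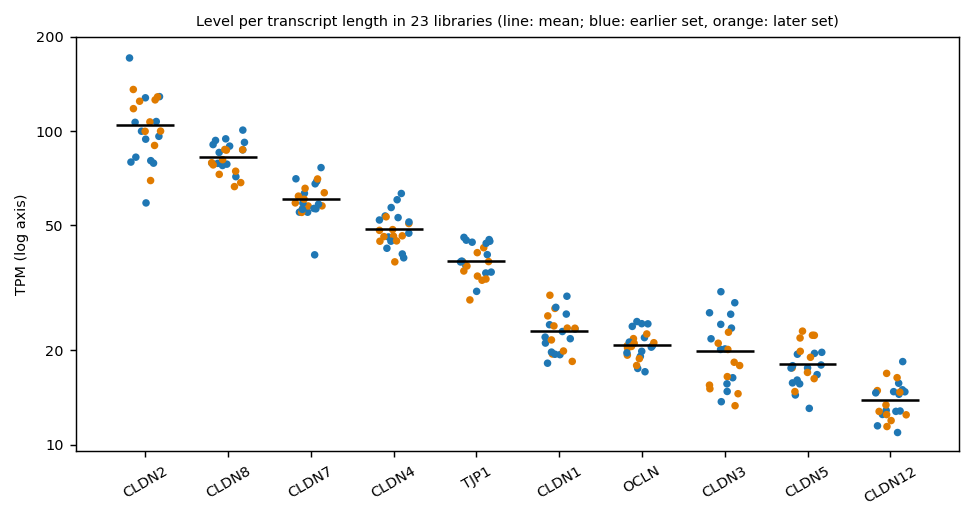
Level of each member per transcript length (TPM, log axis) in the 23 libraries, 1 point a library, ordered by the mean (line), with colours for the earlier and later sets of pig numbers. CLDN2 and CLDN8 stand at the top (105 and 82.7 TPM), and CLDN1, OCLN, CLDN3 and CLDN5 overlap, with means between 18 and 23 TPM.

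CLDN2 rose in CF against WT. In the WT libraries it ran from 158 to 266 CPM with a median of 208. The HET libraries ran from 209 to 317 CPM with a median of 276, and the CF libraries from 187 to 468 CPM with a median of 319. Of the 11 CF libraries, 9 lay above the highest WT library and 10 above the WT median, while the libraries CF6 (pig 6, 187 CPM) and CF11 (pig 11, 243 CPM) lay within the WT range. All 6 HET libraries were above the WT median and 4 were above the highest WT library. The groups therefore overlapped, with the HET mean (276 ± 39.2, n = 6) between WT (209 ± 36.3, n = 6) and CF (325 ± 73.4, n = 11).
The log2 fold change of CF against WT was 0.64 (SE 0.14, 95% interval 0.34 to 0.93, 1.56-fold), with an adjusted p of 0.0456 in edgeR's quasi-likelihood test over 20921 genes. It was the one member of 10 called in this contrast, where 0.349% of all genes were called. HET against WT gave 0.40 (SE 0.16, adjusted p = 0.587) and CF against HET 0.24 (SE 0.14, 95% interval -0.05 to 0.53, adjusted p = 0.595). CF against all non-CF libraries gave 0.42 (SE 0.13, adjusted p = 0.111), and the same direction within each set of pig numbers, 0.52 (SE 0.19) in the earlier and 0.32 (SE 0.13) in the later.
The call in CF against WT stood close to the limit in edgeR. It was kept with DESeq2 (adjusted p = 0.00256, with 2.75% of all genes called by that tool) and in 5 other edgeR settings (0.0372 to 0.0492), namely median-of-ratios and upper-quartile scaling, at least 10 counts in every library, length-scaled TPM counts and the number set as a term. It was lost with limma-voom (adjusted p = 0.0523), without a filter on low counts (0.0559) and with EIF1AY, above, as a term in the fit (0.0634), whereas the fold change stayed between 0.57 and 0.72 when any 1 library was left out. The adjusted p then ran from 0.0164 to 0.108, and rose above 0.05 without 14 of the 23 libraries, namely the CF libraries of pigs 1, 2, 3, 5, 7, 8 and 9, the HET libraries of pigs 14 and 20, and the WT libraries of pigs 12, 16, 17, 18 and 22. The library CF6 was the one whose removal gave the lowest adjusted p. DESeq2 gave CF against non-CF an adjusted p of 0.0378.

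CLDN2 is a proximal tubule gene, so the markers of that segment were read beside it. The summed level of 5 markers (LRP2, CUBN, SLC34A1, SLC5A2 and SLC5A12) ran from 6021 to 8367 CPM in WT, 6478 to 9388 in HET and 6107 to 12152 in CF. All 5 were higher on average in CF than in WT, by 0.05 (SLC5A12) to 0.36 (CUBN) on the log2 scale, and none was called by edgeR, with 1 (CUBN) at an unadjusted p under 0.05 and called by DESeq2. The mean log2 CPM of the 5 differed by 0.13 between CF and WT (p = 0.316, two-sided exact permutation test).
Within each library, CLDN2 was then set against the geometric mean of the 5 markers, a ratio that needs no scaling between libraries and that was chosen after the values were seen. CLDN2 was by then the member called in CF against WT. The tests of the ratio are therefore not separate support for that call, and their adjustment does not cover the choice of CLDN2. The log2 ratio averaged -1.74 ± 0.15 in WT, -1.43 ± 0.19 in HET and -1.26 ± 0.40 in CF. It was higher in CF than in WT by 0.49 (exact permutation p = 0.00711, 10 of 11 CF libraries above the WT median). HET exceeded WT by 0.31 (exact permutation p = 0.0108, 6 of 6), and the difference of 0.17 between CF and HET was within the spread (exact permutation p = 0.343). Adjusted over the 12 exact tests of this family, which also held log2 CPM of CLDN2 and the marker mean, these p-values were 0.0284, 0.0325 and 0.423. The ratio in CF against non-CF gave an exact permutation p of 0.0244 (adjusted p = 0.0489). On log2 CPM of CLDN2, HET against WT gave an exact permutation p of 0.0238 (adjusted p = 0.0489 over the 12 tests), where edgeR's adjusted p over all genes was 0.587.

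**Figure D2:**
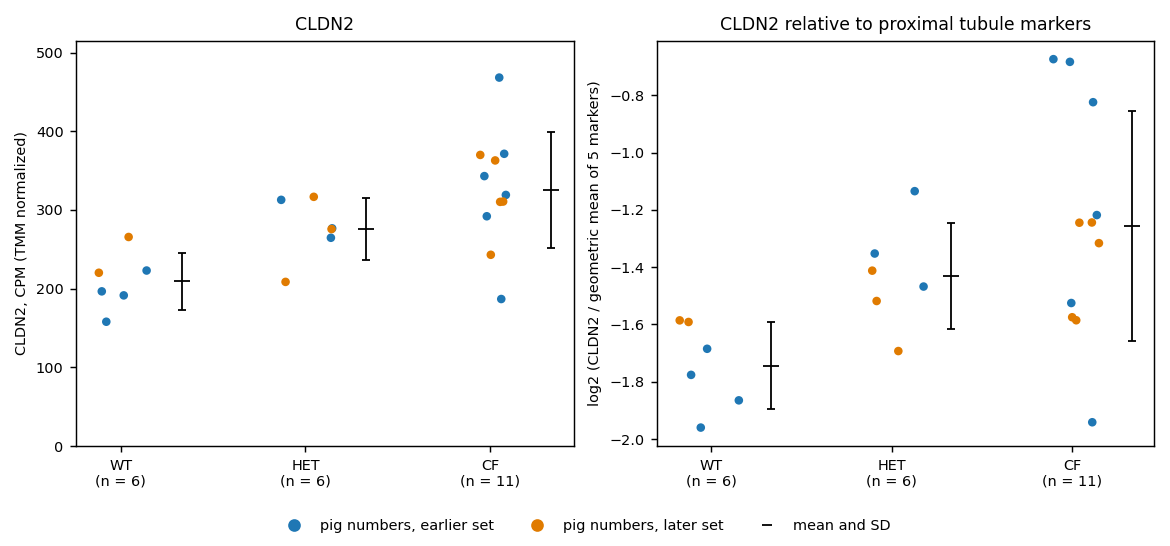
CLDN2 in each library by genotype label, as TMM-normalized CPM (left) and as the log2 ratio to the geometric mean of 5 proximal tubule markers (right), with the mean and SD beside the points and colours for the earlier and later sets of pig numbers. Means run from 209 CPM in WT through 276 in HET to 325 in CF, and the library CF6 lies at 187 CPM.

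CLDN2 sits on the X chromosome, and the libraries with EIF1AY RNA were unevenly spread over the labels. In CF, CLDN2 had a median of 353 CPM in the 6 libraries with EIF1AY RNA and 311 CPM in the 5 without it. In WT, the medians were 177 CPM in 2 libraries and 222 CPM in 4. In HET, the median was 277 CPM in the 5 libraries with EIF1AY RNA, and the 1 without it was at 265 CPM. With EIF1AY as a term, CF against WT gave a log2 fold change of 0.63 (SE 0.15) and was not called (adjusted p = 0.0634). The part of sex in the result cannot be read from the labels. A single transcript of CLDN2, with 2 exons, took all of the gene's estimated counts in every library, and the shorter single-exon model took none.

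CLDN8, CLDN7, CLDN4 and CLDN3, the claudins of the distal nephron, did not pass the test in any contrast. CLDN8, which pairs with CLDN4 in the chloride path of the collecting duct, ran from 43.4 to 59.6 CPM in WT, 48.2 to 59.8 in HET and 35.5 to 58.6 in CF, with medians of 47.9, 50.4 and 47.9. The ranges of the labels lay on top of each other. The log2 fold change of CF against WT was -0.06 (SE 0.09, 95% interval -0.25 to 0.14).
CLDN7, a barrier claudin along the distal tubule, had medians of 45.9 CPM in WT (39.4 to 50.2), 55.2 in HET (47 to 58.7) and 50.2 in CF (28.1 to 66.8). The CF range enclosed that of WT, and 4 of 6 HET libraries were above the highest WT library. HET against WT gave 0.24 (SE 0.14, adjusted p = 0.682), and CF against WT gave 0.10 (SE 0.12, adjusted p = 0.775).
CLDN4 had medians of 56.4 CPM in WT (48.9 to 79.8), 66.9 in HET (56.7 to 77.4) and 64.8 in CF (44.8 to 90), and CLDN3 had 10.9 (8.8 to 17), 14.5 (7.5 to 19) and 10.2 (7.89 to 17.6). The CF range enclosed those of both other labels for CLDN4, and lay within the HET range for CLDN3. The 95% interval of the CLDN4 fold change, CF against WT, was -0.13 to 0.43 on the log2 scale, and that of CLDN3, the least precise of the members, was -0.44 to 0.37.
Beside these genes, the summed level of 4 distal convoluted tubule markers (SLC12A3, CALB1, PVALB and TRPM6) ran from 593 to 789 CPM in WT, 272 to 1088 in HET and 298 to 537 in CF, and the sum of collecting duct and connecting tubule markers from 378 to 545 CPM in WT, 415 to 533 in HET and 337 to 624 in CF. Of 7 collecting duct and connecting tubule markers tested by edgeR, 2 were higher and 5 lower in CF against WT. The 2 higher were HSD11B2 and ATP6V1B1, both at an unadjusted p under 0.05 (background 14.1%) and not called. ATP6V1B1, among the 2 genes most like CLDN2 across libraries, was also higher in HET against WT at that limit. There, 3 markers were higher and 4 lower (background 7.99%). The part of segment makeup in the claudin values was not tested.

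CLDN5, CLDN1 and CLDN12 were also not called. CLDN5, the main claudin of vascular endothelium, had medians of 11.2 CPM in WT (8.54 to 13.9), 13.8 in HET (10.6 to 17.9) and 13 in CF (10.4 to 17.8). Its log2 fold change was 0.24 (SE 0.13, adjusted p = 0.397) for CF against WT and 0.29 (SE 0.14, adjusted p = 0.624) for HET against WT. The summed level of 7 endothelial markers ran from 568 to 733 CPM in WT, 606 to 707 in HET and 514 to 760 in CF and its part in the CLDN5 values was not tested.
CLDN1, a barrier claudin, had medians of 24.9 CPM in WT (20.3 to 28.5), 22.2 in HET (20.7 to 25.3) and 23.2 in CF (20.4 to 29.3). Its largest log2 fold change was -0.15 (SE 0.09, adjusted p = 0.717), for HET against WT. CLDN12 had medians of 19.5 CPM in WT (16.2 to 22.6), 18.8 in HET (17 to 21.1) and 20 in CF (16.7 to 28).
CLDN12 was the one member whose CF effect had an unadjusted p under 0.05 for a difference between the sets of pig numbers. CF against non-CF gave 0.30 (SE 0.10) on the log2 scale in the earlier set and -0.07 (SE 0.10) in the later, a difference of -0.37 (SE 0.14) with an adjusted p of 0.364. No member was called for this difference by edgeR, DESeq2 or limma-voom, against 0.0191% of all genes by edgeR, 0.688% by DESeq2 and 3 of 20921 by limma-voom. By edgeR, 1 of 10 had an unadjusted p under 0.05, against 10.1% of all genes.

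OCLN and TJP1 were not called in any contrast. OCLN had medians of 62.7 CPM in WT (54.9 to 69), 63.3 in HET (59.6 to 81.5) and 68.2 in CF (57.8 to 76.3). Its log2 fold change of CF against WT was 0.12 (SE 0.08, 95% interval -0.04 to 0.28). TJP1 had medians of 253 CPM in WT (207 to 288), 251 in HET (229 to 266) and 247 in CF (218 to 354), and a log2 fold change of 0.03 (SE 0.09, 95% interval -0.16 to 0.23).
TJP1 transcripts differ in an internal exon of 240 bases (chr1:144950899-144951138, minus strand), which 7 of 15 annotated transcripts hold. This exon and its comparison were chosen after the data were examined. ZO-1 is known in forms with and without an alternatively spliced domain, and whether this exon encodes it was not examined. Transcripts with the exon took 57.3% ± 4.69 of TJP1 TPM in CF, 57.5% ± 6.09 in HET and 51.8% ± 5.08 in WT. CF exceeded WT by 5.43 percentage points (exact permutation p = 0.0427, adjusted p = 0.128 over 3 comparisons), and HET exceeded WT by 5.67 points (exact permutation p = 0.119). Neither passed the correction, and these shares rest on how reads were split between near-identical transcripts.

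**Figure D3:**
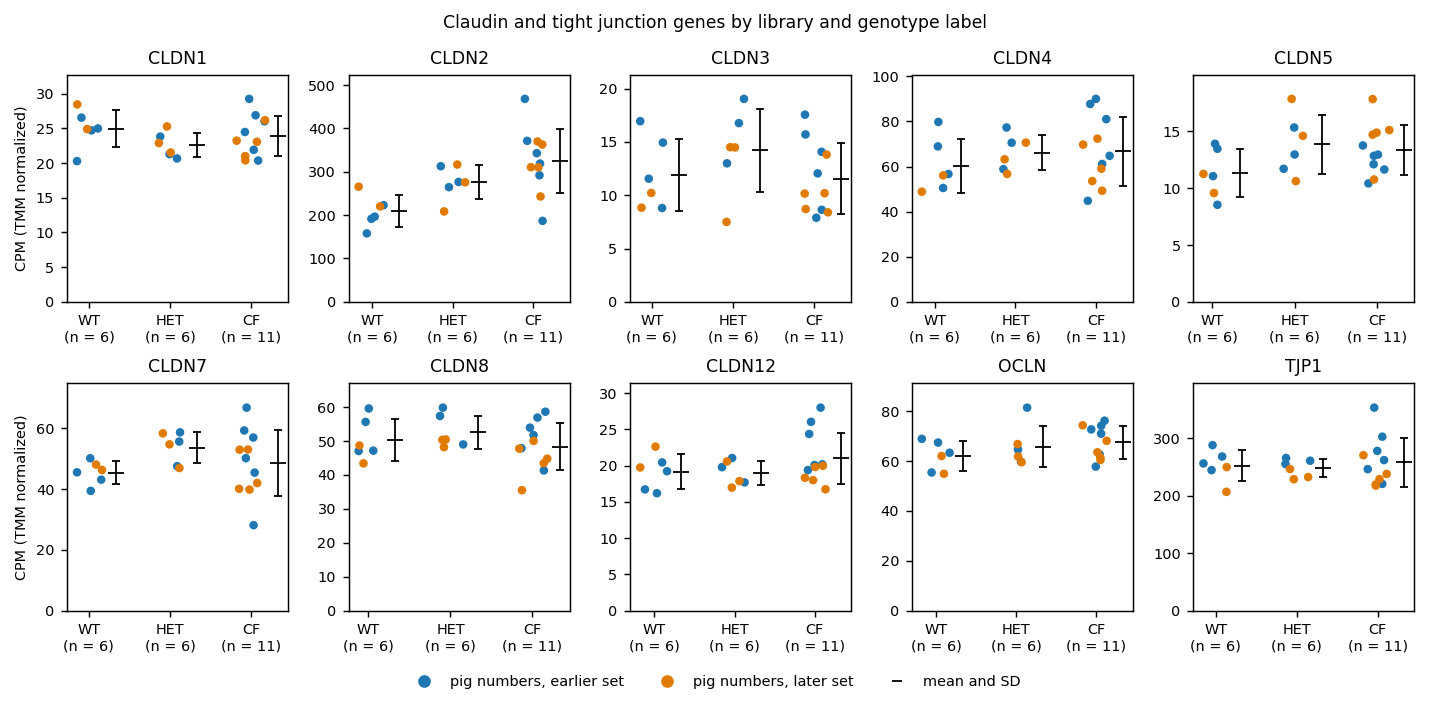
Level of each member (TMM-normalized CPM, axes from 0) in the 23 libraries by genotype label, 1 point a library, with the mean and SD beside the points and colours for the earlier and later sets of pig numbers. For CLDN2, 9 of 11 CF libraries lie above the highest WT library.

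Over all 10 members, 7 were higher in CF than in WT, with a median log2 fold change of 0.11, beside a median of 0.00 over all genes tested. HET against WT also had 7 higher, with a median of 0.11, and CF against HET had 6 higher, with a median of 0.02. In CF against WT, edgeR and DESeq2 each called 1 member, CLDN2, beside 0.349% and 2.75% of all genes, and limma-voom called 0, beside 66 of 20921 genes. In CF against non-CF edgeR, limma-voom and the exact Mann-Whitney U test called 0 members and DESeq2 called 1 (CLDN2), while edgeR called 0.349% of all genes and DESeq2 2.46%. Of the 20921 genes, limma-voom called 46 there and the Mann-Whitney U test 29. In HET against WT no member was called by edgeR, DESeq2 or limma-voom, beside 0.00478% of all genes by edgeR, 0.158% by DESeq2 and 1 of 20921 by limma-voom. In CF against HET none was called by any of the 3 tools, and the background was 0% by edgeR, 0.311% by DESeq2 and 0 of 20921 genes by limma-voom.
At an unadjusted p under 0.05, the members passing numbered 1 in CF against non-CF (background 13.7%), 1 in CF against WT (14.1%), 1 in HET against WT (7.99%) and 0 in CF against HET (9.89%). CLDN2 was that member in the 3 contrasts with 1. A share of 1 in 10 is near the background in those contrasts. The contrasts share libraries and are not independent of each other.

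**Figure D4:**
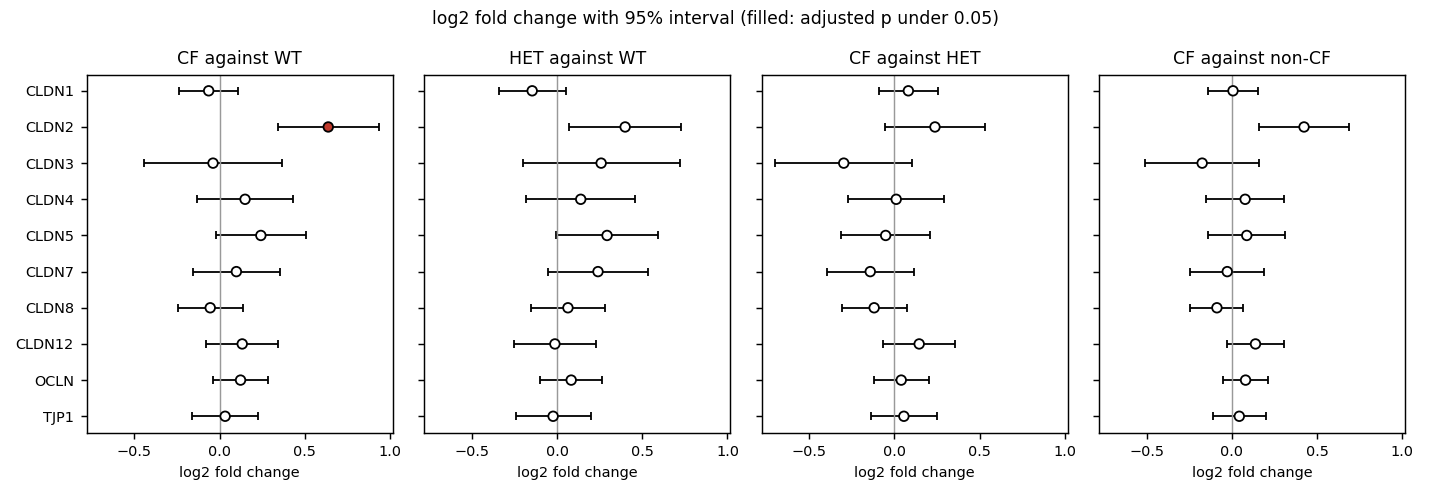
log2 fold change of each member in 4 contrasts between genotype labels, with the 95% interval from the edgeR fit and points filled where the adjusted p was under 0.05. CLDN2 in CF against WT, at 0.64, is the one filled point, and the intervals of the other 9 members include 0 in all 4 contrasts.

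CLDN3, CLDN4 and CLDN7 varied together from pig to pig, and OCLN varied with CLDN4 and CLDN2. Over the 23 libraries, log2 CPM of CLDN4 and CLDN7 correlated with Pearson r = 0.83 and Spearman rho = 0.82 (permutation p = 1e-05, the smallest the 100000 resamples can give, adjusted p = 0.000225 over 45 pairs). CLDN3 and CLDN4 gave r = 0.75 and rho = 0.75 (permutation p = 1e-05, adjusted p = 0.000225). CLDN4 and OCLN gave r = 0.70 and rho = 0.72 (adjusted permutation p = 0.00285).
CLDN3 and CLDN7 gave r = 0.66 and rho = 0.71 (adjusted permutation p = 0.00416), and CLDN2 and OCLN gave r = 0.57 and rho = 0.62 (adjusted permutation p = 0.0453). By Pearson's r these 5 pairs passed the correction of 45 tested, and all were positive. By Spearman's rho the same 5 passed and so did a negative pair, CLDN5 and CLDN12 (rho = -0.68, adjusted permutation p = 0.00468), for which r was -0.53 (adjusted permutation p = 0.0623). That pair gave r = -0.37 in the earlier and -0.81 in the later set, -0.67 with the means of labels and sets removed, and -0.53 without the 2 libraries farthest from the median of CLDN5. OCLN did not pass with CLDN7 (r = 0.54, adjusted permutation p = 0.0563) or CLDN3 (r = 0.44, adjusted permutation p = 0.157). The median r over the 45 pairs was 0.17, and 36 were positive.
The values were close to these after removing the means of labels and pig number sets, with r of 0.88 for CLDN4 and CLDN7, 0.75 for CLDN3 and CLDN4, 0.65 for CLDN4 and OCLN, 0.67 for CLDN3 and CLDN7 and 0.56 for CLDN2 and OCLN. In the earlier and later sets alone, CLDN4 and CLDN7 gave r of 0.88 and 0.80, CLDN3 and CLDN4 0.70 and 0.75, and CLDN2 and OCLN 0.63 and 0.69. Without the 2 libraries farthest from the median of the first gene, r was 0.80 for CLDN4 and CLDN7, 0.75 for CLDN3 and CLDN4 and 0.63 for CLDN2 and OCLN.
The library CF6 was lowest of the CF libraries in CLDN2, CLDN3, CLDN4, CLDN7 and OCLN, and HET19 was lowest of the HET libraries in CLDN3, CLDN4, CLDN5, CLDN7, CLDN8 and OCLN. Without both, CLDN2 and OCLN gave r = 0.58 and no longer passed (adjusted permutation p = 0.0558), while the other 4 pairs did. All libraries share the same normalization of CPM, and on the log2(TPM + 1) scale r was lower. CLDN4 and CLDN7 (r = 0.66) and CLDN3 and CLDN4 (0.59) passed there, while CLDN3 and CLDN7 (0.48), CLDN4 and OCLN (0.44) and CLDN2 and OCLN (0.43) did not, with adjusted permutation p from 0.163 to 0.197. CLDN5 and CLDN12 passed on that scale (r = -0.60, adjusted permutation p = 0.0441).

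**Figure D5:**
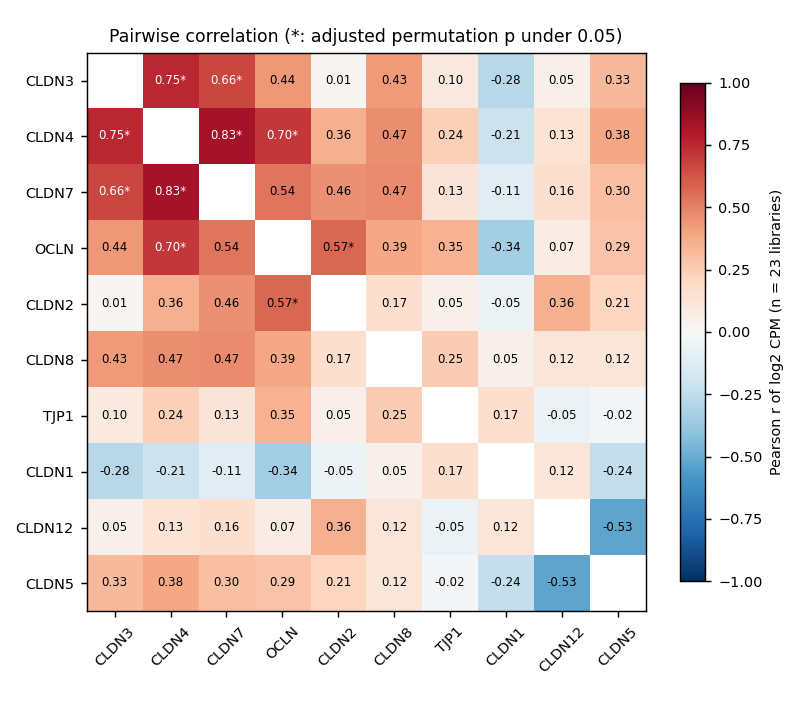
Pearson r of log2 CPM between each pair of members over 23 libraries, with stars at the 5 pairs whose permutation p, adjusted over 45 pairs, was under 0.05. The 3 pairs among CLDN3, CLDN4 and CLDN7 at the top left all carry a star, with r = 0.83 for CLDN4 and CLDN7, and OCLN has stars with CLDN4 and CLDN2.

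Set against all 20921 genes, CLDN7 was among the genes most like CLDN4, with 4 genes at a higher r, and CLDN4 among those most like CLDN7, with 5 at a higher r. The other correlated pairs ranked lower in both directions, with 75 and 57 genes at a higher r for CLDN3 and CLDN4, 155 and 53 for CLDN4 and OCLN, 356 and 332 for CLDN3 and CLDN7, and 557 and 442 for CLDN2 and OCLN. The 2 genes most like each member, by Pearson r of log2 CPM over the 23 libraries, are given as a description. For CLDN4 they were SLC7A4 (r = 0.86) and TMC4 (0.86), for CLDN7 RUNDC1 (0.87) and OAF (0.87), and for CLDN3 TJP3 (0.86), the zonula occludens 3 scaffold, and DNAJC5 (0.86). For CLDN2 they were MARCH6 (0.87), a ubiquitin ligase of the endoplasmic reticulum, and ATP6V1B1 (0.86), a proton pump subunit of intercalated cells. For TJP1 they were TNKS (0.92) and NCOA2 (0.91), and for CLDN8 NUDT19 (0.80) and TMEM18 (0.79). The nearest genes of CLDN1, CLDN5, CLDN12 and OCLN reached r of 0.77, 0.79, 0.82 and 0.79.

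Other tight junction genes were read from a list of 43, of which 40 could be tested. None was called by edgeR or limma-voom in any contrast, and DESeq2 called CLDN23 in HET against WT (0.158% of all genes called by DESeq2) and ARHGEF2 for the difference between the number sets (0.688%). In CF against non-CF, 20 were higher and 20 lower, with a median log2 fold change of 0.00, and 3 of 40 had an unadjusted p under 0.05 (background 13.7%). The same count was 4 in CF against WT (background 14.1%), 6 in HET against WT (7.99%), 8 in CF against HET (9.89%) and 4 for the difference between the sets (10.1%). The 3 in CF against non-CF were CGN (cingulin, a junction-to-cytoskeleton adaptor, -0.22, SE 0.07, adjusted p = 0.112), MPP5 (the polarity scaffold also called PALS1, 0.25, SE 0.08, adjusted p = 0.131) and CRB3 (crumbs 3, an apical polarity protein, -0.16, SE 0.07, adjusted p = 0.34). SYMPK (-0.13) and ARHGEF2 (0.13) came next.
CLDN10, CLDN14, CLDN16 and CLDN19, the other renal claudins, were not called by edgeR, DESeq2 or limma-voom in any contrast. CLDN10, which has forms in the proximal tubule and thick ascending limb, was at 58.6 ± 7.47 CPM in WT, 77.8 ± 24.1 in HET and 61.7 ± 13 in CF. HET libraries ran up to 110 CPM, and HET against WT gave 0.41 (SE 0.17, adjusted p = 0.597). CLDN16 and CLDN19, the magnesium and calcium path of the thick ascending limb, gave -0.03 (SE 0.11) and 0.03 (SE 0.23) for CF against WT, and CLDN14, which blocks that path, gave -0.12 (SE 0.11). CLDN23, a scarce claudin named after its values were seen, was at 0.459 ± 0.227 CPM in WT and 1.26 ± 0.395 in HET, a log2 fold change of 1.44 (SE 0.36) with an adjusted p of 0.303 by edgeR and 0.0377 by DESeq2.
Of 14 regulators of claudin expression or function, none was called by edgeR, DESeq2 or limma-voom in any contrast, and those at an unadjusted p under 0.05 by edgeR numbered 3 in CF against non-CF (background 13.7%), 4 in CF against WT (14.1%), 3 in HET against WT (7.99%), 2 in CF against HET (9.89%) and 2 for the difference between the sets (10.1%). The regulators given here were named after their values were seen. The kinases WNK1 and WNK4 and the adaptor KLHL3, which act on the distal salt and chloride path, gave 0.23, -0.45 and 0.34 for CF against WT, with adjusted p of 0.211, 0.17 and 0.226. These 3 and HNF4A were the 4 of CF against WT. HNF4A, a proximal tubule transcription factor, gave 0.38 (SE 0.13, adjusted p = 0.177), and GRHL2, an activator of claudin genes in the distal nephron, gave -0.05. In CF against non-CF, ZEB1, a repressor of epithelial genes, gave 0.18 (SE 0.07, adjusted p = 0.201), and OVOL1, an epithelial transcription factor, gave 0.39 (SE 0.19, adjusted p = 0.624) for HET against WT.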

How the data were processed

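The authors pseudoaligned total RNA reads with kallisto to the Sscrofa11.1 transcriptome and deposited expected counts, TPM and effective lengths for 77689 transcripts per pig, together with a map from transcripts to gene symbols. Estimated counts and deposited TPM were summed per symbol, and the sums of counts were rounded. Groups came from the genotype label, and each library is a different pig. Genes with low counts were removed by filterByExpr, which left 20921, and contrasts were fitted with edgeR 4.0.16 (R 4.3.3; TMM factors, quasi-likelihood test, Benjamini-Hochberg adjustment over all genes, limit 0.05). CF was compared with non-CF in a fit of 2 groups, and the labels with each other in a fit of 3 groups. Standard errors came from the F statistic, and 95% intervals from the residual degrees of freedom. The alternatives used DESeq2 1.42.0, limma 3.58.1 and the exact Mann-Whitney U test, which is the study's own kind of test. Log2 CPM had a prior count of 2. Correlations and exact permutation tests (two-sided) used scipy. On simulated counts, edgeR was tested for CF against non-CF, CF against WT and the difference between the number sets. DESeq2, limma-voom and the Mann-Whitney U test were tested there for CF against non-CF only. Other contrasts and settings were not simulated, and the planted changes were all larger than that of CLDN2. Named genes were the 10 members, CFTR, the other renal claudins, listed tight junction genes that were called or had the 5 smallest p-values in CF against non-CF, and the 2 genes most like each member. Regulators, CLDN23, EIF1AY and HSD11B2 were named outside this rule, after their values were seen, and other segment markers were named as the members of their lists. The members and lists were chosen with earlier results of these data known. One gene of the proximal tubule marker list and one of the regulator list are not reported here and entered no sum, ratio or count of those lists. The floor of 3 counts corresponds to less than 0.1 CPM in every library, and other effects of depth were not tested. The libraries CF11 and CF6, which lay within the WT range of CLDN2, had the lowest total estimated counts, 32901281 and 36437733. Of the transcript values, 63% were not whole. All per-sample columns were mapped to a library by their labels.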

Additional observations from a re-analysis of the deposited data

Results flagged for a closer look

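In groups of 6 libraries, the gap between the highest or lowest library and the nearest other, as a share of the whole range, was compared with the 95% critical value of Dixon's test for 15 genes, the members, CFTR and 4 renal claudins, in the HET and WT labels, 30 groups in all, of which chance flags about 1 in 20. OCLN was at 81.5 CPM in the library HET15, apart from the other HET libraries with a ratio of 0.667. CLDN14 was at 12.6 CPM in the library WT12, with a ratio of 0.657. The 11 CF libraries are too many for this test and were not examined.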

How the results depend on the processing

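No paired analysis was possible because the labels do not name the litter. Each pig was treated as independent, and littermates among the pigs could not be taken into account. The number of members called in CF against non-CF moved from 0 to 1 with DESeq2 (CLDN2, log2 fold change 0.43). In CF against WT it moved from 1 to 0 with limma-voom, without a filter on low counts and with EIF1AY RNA as a term, which was added after seeing the data, and ran from 0 to 1 when 1 library was left out. DESeq2 called 515 genes in CF against non-CF where edgeR called 73, 576 against 73 in CF against WT, 33 against 1 in HET against WT, 65 against 0 in CF against HET and 144 against 4 for the difference between the number sets. With 1 library left out, edgeR's counts ran from 17 (without HET21) to 203 (without CF4) in CF against non-CF, from 20 (without WT12) to 203 (without CF4) in CF against WT and from 1 to 91 (without CF1) for the difference. In that order, these counts moved by over 1.5 times without 16, 12 and 18 of the 23 libraries. The number set as a term gave 148 in CF against non-CF and 186 in CF against WT, and the 2 number sets alone gave 0 (earlier) and 473 (later). In CF against non-CF, limma-voom called 46, the exact Mann-Whitney U test 29, log2(TPM + 1) 5 and log2(TPM + 0.1) 2. At least 10 counts in every library gave 114 in CF against WT. Upper-quartile scaling gave 48 higher and 53 lower in CF against non-CF, where TMM gave 51 and 22, and 36 higher and 103 lower in CF against WT, where TMM gave 32 and 41. CF against HET had 0 to 5 calls in the other fits to all libraries. The count of correlated pairs, 5, moved to 3 on log2(TPM + 1), of which 2 were among the 5 and the other was CLDN5 and CLDN12, to 6 by Spearman's rho, which added that pair, to 1 in the earlier and 0 in the later number set, which hold 13 and 10 libraries, and to 8, the 5 included, with label and set means removed. Small fold changes of CF against non-CF changed sign. CLDN1 gave -0.0221 on the log2(TPM + 1) and -0.0228 on the log2(TPM + 0.1) scale, -0.104 in the later set, -0.0099 with upper-quartile scaling and -0.0261 to 0.0326 with 1 library left out. CLDN12 gave -0.0104 and -0.0108 on the same 2 TPM scales and -0.0666 in the later set, and in the earlier set CLDN5 gave -0.0148 and CLDN7 0.0759. With 1 library left out, CLDN7 ran from -0.0821 to 0.027 and TJP1 from -0.0109 to 0.0649. Over single genes and pairs, 451 of 501 alternative values kept their direction and their side of the limit. The causes were not tested. CLDN3 and CLDN5 had the lowest mean counts of the members, 547 and 570 a library.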
